A study of Homo sapiens with 6 samples.

Results

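The 41 genes of cholesterol and fatty acid synthesis examined here comprised 5 regulators of the pathway, 18 enzymes of the sterol branch, 1 sterol carrier and 17 genes of the fatty acid branch. They were matched by symbol in the deposited count files, and all 41 were found among the 27754 genes listed there. Expression was measured by RNA sequencing in T47D, an established line of luminal, hormone receptor-positive breast cancer cells grown as an adherent layer with serum. Per the labels, 3 libraries came from normoxia cells at 20% O2 and 3 from cells held at 0.5% O2 for 48 hours. The study's text names another oxygen level for this experiment, so the exact tension is uncertain. No gene was altered in either group, all 6 libraries come from 1 cell line, and nothing in the labels says that libraries of a condition came from separate cultures, so p-values measure the spread among these libraries. Total counts ranged from 32989104 to 40943424 in 5 libraries and reached 89883409 in hypoxia replicate 3.

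Cholesterol and long-chain fatty acids are both built from cytosolic acetyl-CoA, which ATP citrate lyase makes from citrate. The sterol branch condenses acetyl-CoA to mevalonate, isoprenoids and squalene, and then needs molecular oxygen at squalene epoxidation and at several steps that remodel lanosterol. The fatty acid branch builds saturated chains without oxygen, whereas the desaturases that insert double bonds consume it. Both branches are driven by the SREBP transcription factors, which SCAP escorts from the endoplasmic reticulum to the Golgi for cleavage unless INSIG1 or INSIG2 retains them. The comparison of hypoxia with normoxia was therefore read by branch, by regulator and by whether a step consumes oxygen.

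SREBPs bind sterol regulatory elements in promoters, commonly near NF-Y and Sp1 sites, and the promoters of the members were searched for these letters. RefSeq promoter windows (GRCh38.p14, 250 bases before to 50 after a start) were matched by symbol for 37 of the 41 members, and each motif was searched on both strands of every window of a gene. No window was matched for FASN, ACAT2, SQLE and FDFT1, so these promoters were not searched. The sterol element was searched as CACNCCAC and, with 1 more base, as TCACNCCAC, so every match of the longer form is also a match of the shorter. The shorter form was found in 7 of 37 members (18.9%) and in 7.05% of 27305 genes with a window (7.86% of the 11350 that were also tested for expression). All 7 members with a match are shown, as 30 bases around 1 match per gene read along the gene's strand, with the match in capitals. A match on the opposite strand reads as the reverse complement.
SREBF2 (chr22:41832961-41832990, plus strand, 133 bases before the start): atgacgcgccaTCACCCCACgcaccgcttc
INSIG1 (chr7:155297659-155297688, plus strand, 208 bases before the start): gcgggccggcgGTGGCGTGtgcgcacgtca
IDI1 (chr10:1048983-1049012, minus strand, 115 bases before 1 of its annotated starts): ggccgggcgatGTGGCGTGgactggcgctg
SC5D (chr11:121292773-121292802, plus strand, 68 bases before the second of its annotated starts): tttgcagagcaGTGGCGTGcggagcggcgg
ACACA (chr17:37299973-37300002, minus strand, 224 bases before 1 of its annotated starts): gttccctagtaGTGGCGTGtttcctttcta
SCD (chr10:100347108-100347137, plus strand, 114 bases before the start): gcagaggccggGTGGTGTGgtgtcggtgtc
ACSL1 (chr4:184805774-184805803, minus strand, 242 bases before 1 of its annotated starts): gtggagcaGTGGGGTGActttgctgctggc
Only SREBF2 and ACSL1 held the longer form, 2 of 37 members against 1.39% of all genes with a window. Of these 7 genes, 6 fell in hypoxia and SC5D rose, beside 27 lower and 4 higher of all 40 tested members. Among all genes with a window, the shorter form stood in 7.19% of those lower in hypoxia and 9.07% of those higher. A link between the element and the change was not tested.

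The letters of the NF-Y box, CCAAT, were more widespread. They stood in the windows of 29 of 37 members (78.4%), of 39.7% of all 27305 genes and of 42.7% of the tested ones. The sterol branch held them in 13 of 15 promoters and the fatty acid branch in 13 of 16, whereas 2 of the 5 regulators did. The 8 oxygen-consuming members with a window held them in 6 promoters, and the 23 other genes of both branches in 20. The promoters of mevalonate kinase and of NSDHL are shown as examples of windows with matches close together, which other members, such as IDI1, also held. Matches are again in capitals, with ATTGG as the opposite-strand reading.
MVK (chr12:109573695-109573724, plus strand): attgaCCAATgttcaagcctATTGGtaaag
NSDHL (chrX:152830939-152830968, plus strand): cgccgtgagcgCCAATTGGctgagtcgtcg
The E-box CACGTG was found in 5 of 37 members (13.5%, against 8.77% of all genes and 12.2% of the tested ones). ACGTG, a form of the core of the hypoxia response element that every E-box also contains, was found in 13 (35.1%, against 24.9% and 31.6%). Both shares lay close to those of the tested genes. The other form of the core, GCGTG, was not searched, so members without ACGTG can still hold a core. The Sp1 box GGGCGG stood in 34 (91.9%, against 48.3% of all genes and 75% of the tested ones). These are matches of letters and not measured binding.

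In hypoxia the pathway fell in most of its members. Of the 40 members that passed the filter on low counts, 27 were lower in hypoxia, 4 were higher and 9 did not pass the test, which was edgeR's quasi-likelihood test with a Benjamini-Hochberg adjusted p under 0.05 over 15657 genes. Over all genes tested, 29.1% were called lower and 30.4% higher. The median log2 fold change of the 40 members was -0.71, against 0.028 over all genes tested. The 4 that rose were INSIG2, SC5D, SCD5 and FADS3. Only ME1, the cytosolic malic enzyme, was too low to test, with 7, 11 and 2 counts in normoxia and 5, 0 and 14 counts in hypoxia.

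The members are expressed at intermediate to high levels, and genes at such levels leaned lower in these libraries. Among the 9088 genes tested with a mean of 10 to 500 TPM (transcripts per 1000000, a level per gene length) in normoxia, 43.4% were called lower and 17.4% higher, and their median log2 fold change was -0.21. The 35 members in that range had 26 lower and 2 higher, with a median of -0.72. This range was chosen after the values were seen.

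Larger changes were also mostly downward. A fall of at least 2-fold was called for 8 members, INSIG1, ACAT2, MVK, IDI1, FDFT1, EBP, ACACA and FASN, and for 4.91% of all genes tested. A rise of at least 2-fold was called for 3 members, INSIG2, SCD5 and FADS3, against 15.2% of all genes. Normalized counts of the groups did not overlap for 28 members that were lower in all 3 hypoxia libraries (32.4% of all genes) and for 4 that were higher (34.9% of all genes). Same-numbered libraries of the 2 conditions deviated together, but pairing beyond replicate 3 was not tested. With the replicate number as a block 31 members were lower and 5 higher, beside 35.2% and 36.6% of all genes. Replicate 3 stood apart in both conditions, and without it 30 members were lower and 5 higher, beside 34.8% and 36.4% of 15803 genes tested.

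**Figure D1:**
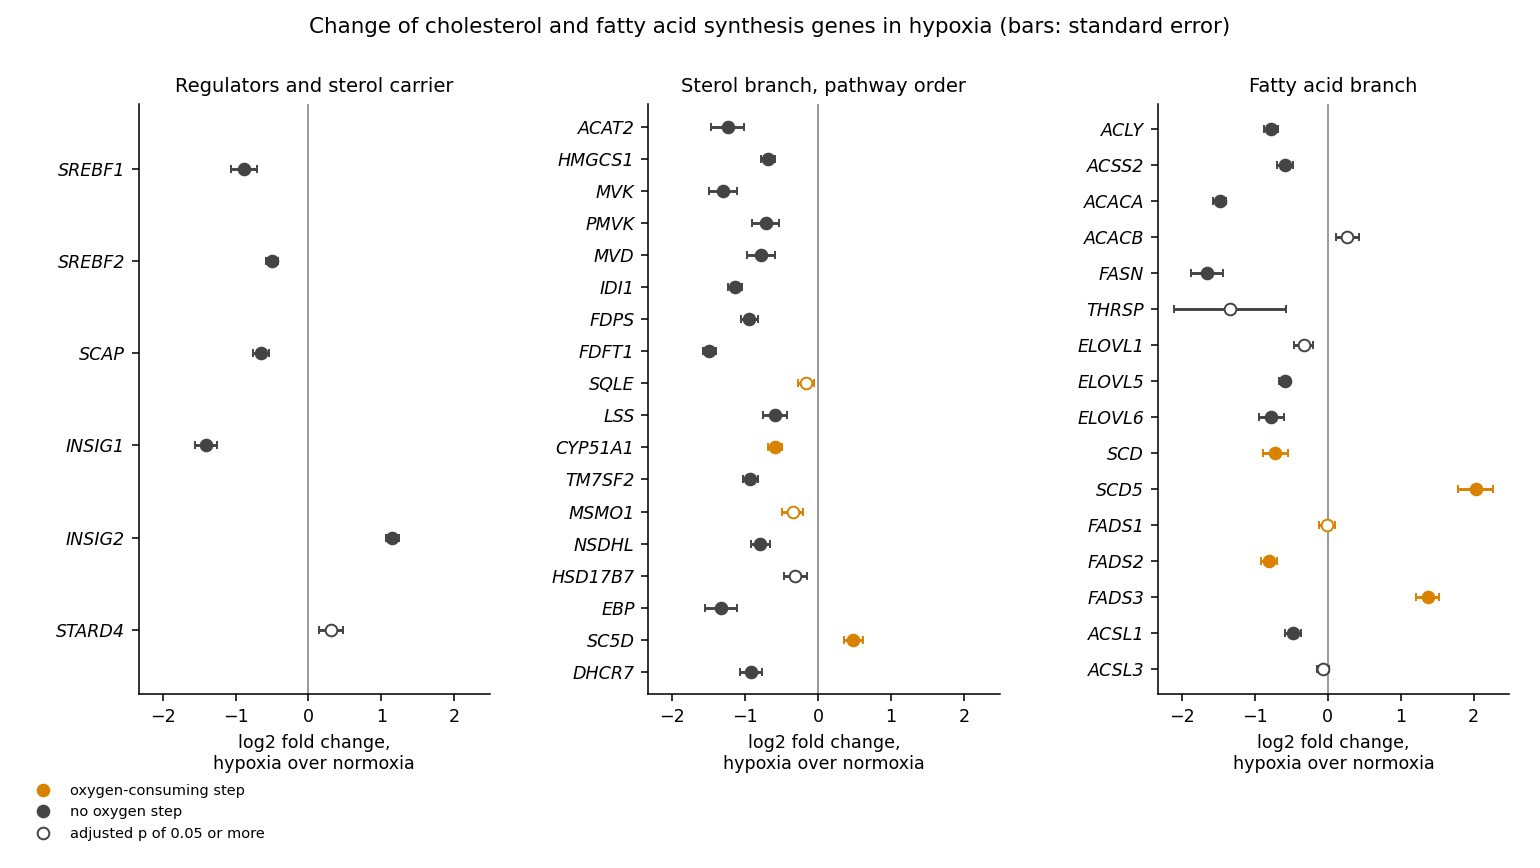
Log2 fold change in hypoxia over normoxia (x axis) of the 40 tested members, one per line, with bars for the standard error. Orange marks oxygen-consuming steps and open circles mark an adjusted p of 0.05 or more. Most points lie left of 0, and the 4 filled points to the right are INSIG2, SC5D, SCD5 and FADS3.

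All 5 regulators changed, 4 downward and 1 upward, beside 29.1% lower and 30.4% higher over all genes tested. Values are given in counts per 1000000 counts of the library (CPM) after TMM scaling, in replicate order. SREBF1, which encodes SREBP-1, the main driver of fatty acid synthesis genes, was at 203, 176 and 227 CPM in normoxia and 96, 90 and 142 CPM in hypoxia. It fell 1.85-fold, with a log2 fold change of -0.88 ± 0.18 (SE, n = 3 per condition) and an adjusted p of 0.00378. The highest hypoxia library, replicate 3, stayed under the lowest normoxia library. SREBF2 encodes SREBP-2, the main driver of cholesterol synthesis, and was at 170.0, 157 and 186 CPM in normoxia and 116, 118 and 128 CPM in hypoxia. Its fall was smaller (log2 fold change -0.50 ± 0.087, adjusted p = 0.00179) and missed the threshold when both replicate 1 libraries were left out (-0.48, adjusted p = 0.0508). SCAP, the escort protein, was at 106, 101 and 126 CPM in normoxia and 66.8, 67 and 78.2 CPM in hypoxia and fell by a similar size (log2 fold change -0.65 ± 0.11, adjusted p = 0.00164).

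The pair of INSIG genes moved in opposite directions. INSIG1, itself a classical SREBP target, lies at chr7:155089482-155101945 on hg19 and was at 37.8, 29.3 and 37.5 CPM in normoxia and 13.4, 15.1 and 11.1 CPM in hypoxia. It fell 2.64-fold (log2 fold change -1.40 ± 0.15, adjusted p = 2.29e-04). INSIG2, the paralog, which does not depend on SREBP in the same way, lies at chr2:118845994-118867607 and was at 16.7, 19.4 and 17.9 CPM in normoxia and 40.5, 41.4 and 38 CPM in hypoxia. It rose 2.22-fold (log2 fold change 1.15 ± 0.091, adjusted p = 8.32e-05), and no hypoxia library came near the normoxia range. Per gene length, INSIG2 was the lower of the pair in normoxia and the higher in hypoxia. The ratio of their TPM was 0.506, 0.76 and 0.547 in the normoxia libraries and 3.47, 3.14 and 3.91 in the hypoxia libraries, a 5.8-fold shift. The ratio of SREBF1 to SREBF2 moved less, from 1.36, 1.28 and 1.39 to 0.95, 0.873 and 1.27, and only its replicate 3 in hypoxia came near the normoxia values.

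**Figure D2:**
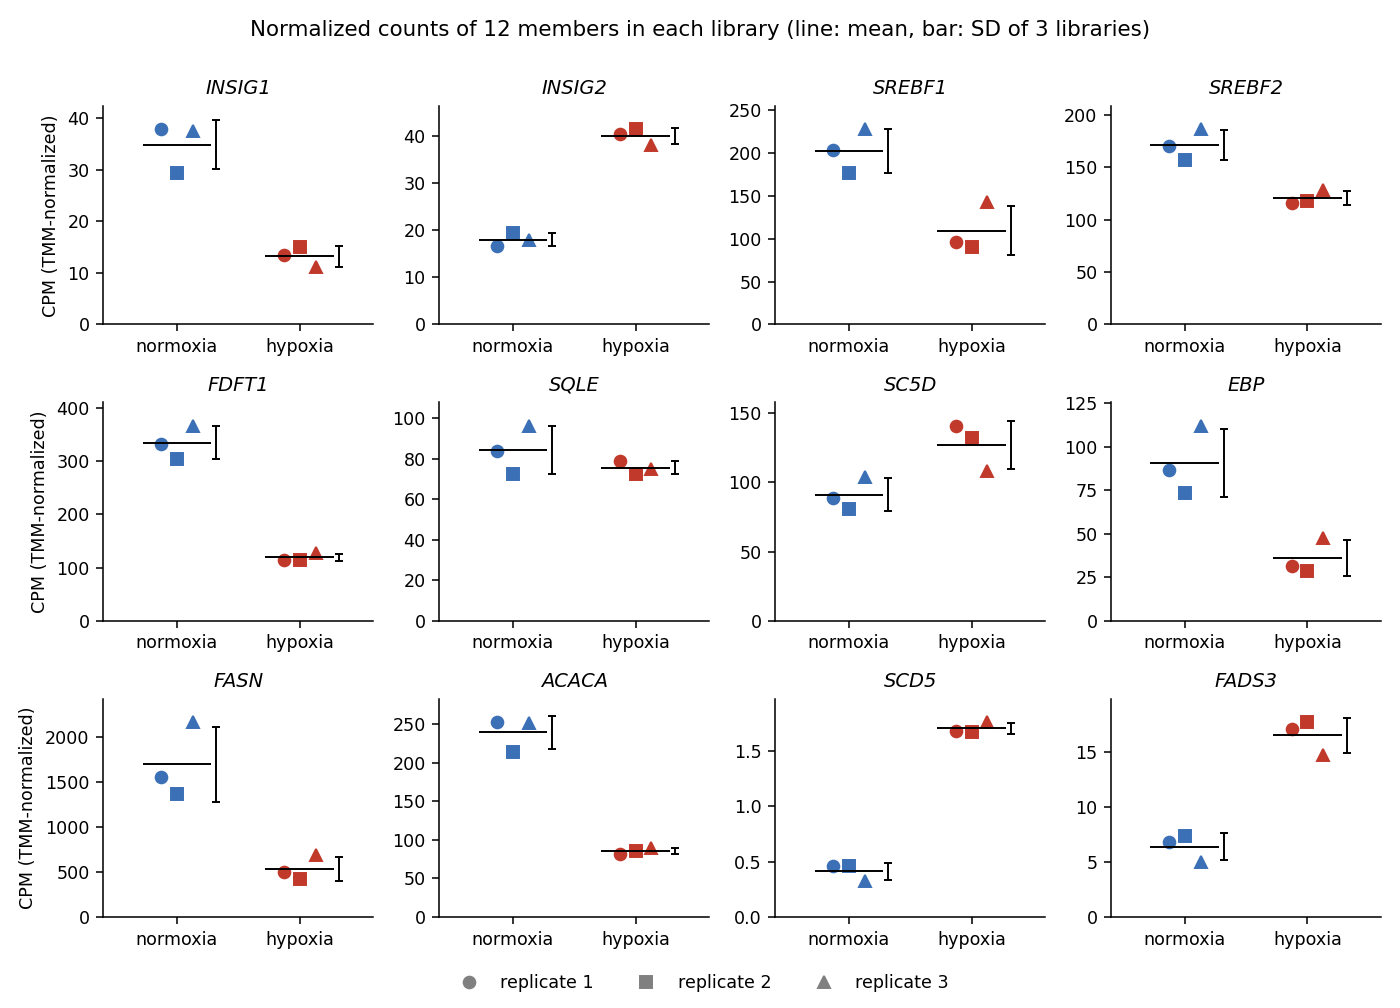
TMM-normalized CPM (y axis, from 0) of 12 members in each of the 3 normoxia (blue) and 3 hypoxia (red) libraries, with the mean as a line and the SD as a bar. INSIG1, FDFT1, EBP, FASN and ACACA separate downward and INSIG2, SCD5 and FADS3 upward, while the SQLE libraries overlap.

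In the sterol branch 14 of 18 enzymes fell, 1 rose and 3 did not pass the test, with a median log2 fold change of -0.78. Over all genes tested 29.1% were lower and 30.4% higher. Among genes at 10 to 500 TPM in normoxia these shares were 43.4% and 17.4%. The first steps build mevalonate and isoprenoid units. ACAT2, which condenses 2 acetyl-CoA molecules, was at 88.5, 77.2 and 123 CPM in normoxia and 35, 33 and 54.2 CPM in hypoxia, with replicate 3 the highest in both conditions. It fell with a log2 fold change of -1.24 ± 0.23 (adjusted p = 0.00266). HMGCS1, which makes HMG-CoA, fell with a log2 fold change of -0.69 ± 0.093 (adjusted p = 5.94e-04), from 137, 126 and 119 CPM to 80.1, 85.2 and 71.4 CPM. MVK, mevalonate kinase, was at 37.3, 30.1 and 49.9 CPM in normoxia and 14.6, 14.2 and 18.5 CPM in hypoxia. Every hypoxia library was under every normoxia library, and the log2 fold change was -1.30 ± 0.19 (adjusted p = 9.25e-04). PMVK and MVD, the next enzymes of the mevalonate route, fell with log2 fold changes of -0.72 and -0.78, with adjusted p of 0.0128 and 0.00841. Both missed the threshold without replicate 1 (adjusted p = 0.0647 and 0.0648).

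The steps that lead to squalene fell as well. IDI1, the isomerase that supplies both isoprenoid units, was at 206, 175 and 226 CPM in normoxia and 90.8, 92.1 and 92.4 CPM in hypoxia. The hypoxia libraries were almost equal, and the log2 fold change was -1.14 ± 0.10 (adjusted p = 1.19e-04). FDPS, farnesyl diphosphate synthase, fell with a log2 fold change of -0.94 ± 0.11 (adjusted p = 4.06e-04). FDFT1, squalene synthase, commits farnesyl diphosphate to sterols and was at 332, 305 and 367 CPM in normoxia and 115, 115 and 127 CPM in hypoxia. It had the largest fall of the sterol branch, 2.8-fold (log2 fold change -1.49 ± 0.092, adjusted p = 3.99e-05), and the pairs of same-numbered libraries gave log2 ratios of -1.52, -1.41 and -1.53. The counts of ACAT2 and FDPS are uncertain in part, because 23.8% of the exon bases of ACAT2 also lie in TCP1 on the opposite strand and 28.9% of those of FDPS in RUSC1-AS1. The library kit keeps strand per the labels, but whether counting used it is not given in the sources used here. FDPS also has a near-identical pseudogene, FDPSP2, in the files.

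Directly after squalene synthase the pattern changed. SQLE, squalene epoxidase, is the first enzyme of the branch to consume oxygen and was at 83.8, 72.5 and 96.4 CPM in normoxia and 79.1, 72.5 and 75.2 CPM in hypoxia. The groups overlapped, and the test was not passed (log2 fold change -0.16 ± 0.11, adjusted p = 0.25; 0.108 with the replicate block). With upper-quartile scaling its log2 fold change was 0.0051, so SQLE has no direction that holds under each scaling. The TPM of SQLE was 0.371, 0.349 and 0.386 of that of FDFT1 in the normoxia libraries and 1.01, 0.925 and 0.866 of it in the hypoxia libraries. This pair was chosen after its values were seen.

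The later steps turn lanosterol into cholesterol. LSS, which cyclizes squalene epoxide, fell with a log2 fold change of -0.59 ± 0.16 (adjusted p = 0.0134), but missed the threshold without hypoxia replicate 1 (-0.54, adjusted p = 0.0507) and without both replicate 1 libraries (adjusted p = 0.102). CYP51A1, the oxygen-consuming lanosterol demethylase, was at 112, 98.6 and 109 CPM in normoxia and 73.1, 74.4 and 64.2 CPM in hypoxia. The groups did not overlap, and it fell with a log2 fold change of -0.59 ± 0.09 (adjusted p = 0.00101). TM7SF2, a sterol C14 reductase, fell with a log2 fold change of -0.93 ± 0.10 (adjusted p = 2.52e-04). MSMO1, the oxygen-consuming C4 methyl sterol oxidase, was at 48, 40.1 and 50.9 CPM in normoxia and 39.9, 39.4 and 30.1 CPM in hypoxia. The lowest normoxia and the highest hypoxia library nearly touched. Its log2 fold change of -0.35 ± 0.14 missed the threshold (adjusted p = 0.0584) and passed it with the replicate block (adjusted p = 0.0318), without normoxia replicate 2 (-0.46, adjusted p = 0.0317) and without both replicate 2 libraries (-0.50, adjusted p = 0.0458).

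NSDHL, which removes the C4 carboxyl group, fell with a log2 fold change of -0.79 ± 0.13 (adjusted p = 0.00149). HSD17B7, the C4 ketone reductase, had a log2 fold change of -0.31 ± 0.16 that was not called (adjusted p = 0.118), but was called with the replicate block (adjusted p = 0.0344) and without normoxia replicate 2 (-0.46, adjusted p = 0.0314). A pseudogene copy, HSD17B7P2, is also in the files, so its counts are uncertain. EBP, the sterol isomerase, was at 86.4, 73.5 and 112 CPM in normoxia and 31.4, 28.8 and 47.7 CPM in hypoxia. It fell 2.52-fold (log2 fold change -1.33 ± 0.22, adjusted p = 0.00151). DHCR7, which reduces 7-dehydrocholesterol, fell from 139, 121 and 177 CPM to 73.2, 72.1 and 85.4 CPM (log2 fold change -0.92 ± 0.15, adjusted p = 0.00122).

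SC5D, the C5 desaturase that consumes oxygen near the end of the branch, was its only enzyme that rose. It was at 88.8, 80.8 and 104 CPM in normoxia and 141, 132 and 108 CPM in hypoxia. Replicates 1 and 2 were well above their normoxia partners, but replicate 3 was almost level with its own, as the log2 ratios of the pairs, 0.67, 0.71 and 0.054, show. The fitted change was 0.48 ± 0.13 (adjusted p = 0.0136). It missed the threshold without normoxia replicate 1 (0.45, adjusted p = 0.0583), without normoxia replicate 2 (0.38, adjusted p = 0.0568), without hypoxia replicate 1 (0.39, adjusted p = 0.0568), and without both replicate 1 or both replicate 2 libraries (adjusted p = 0.156 and 0.115), whereas without replicate 3 it was 0.69 (adjusted p = 4.73e-07). STARD4, a cytosolic carrier that moves cholesterol between membranes, was at 20.8, 16.7 and 18.2 CPM in normoxia and 25.9, 25.2 and 18 CPM in hypoxia. Its change of 0.31 ± 0.16 was not called (adjusted p = 0.125), but was called with the replicate block (adjusted p = 0.0441), with upper-quartile scaling (adjusted p = 0.0397) and without hypoxia replicate 3 (0.46, adjusted p = 0.0107).

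**Figure D3:**
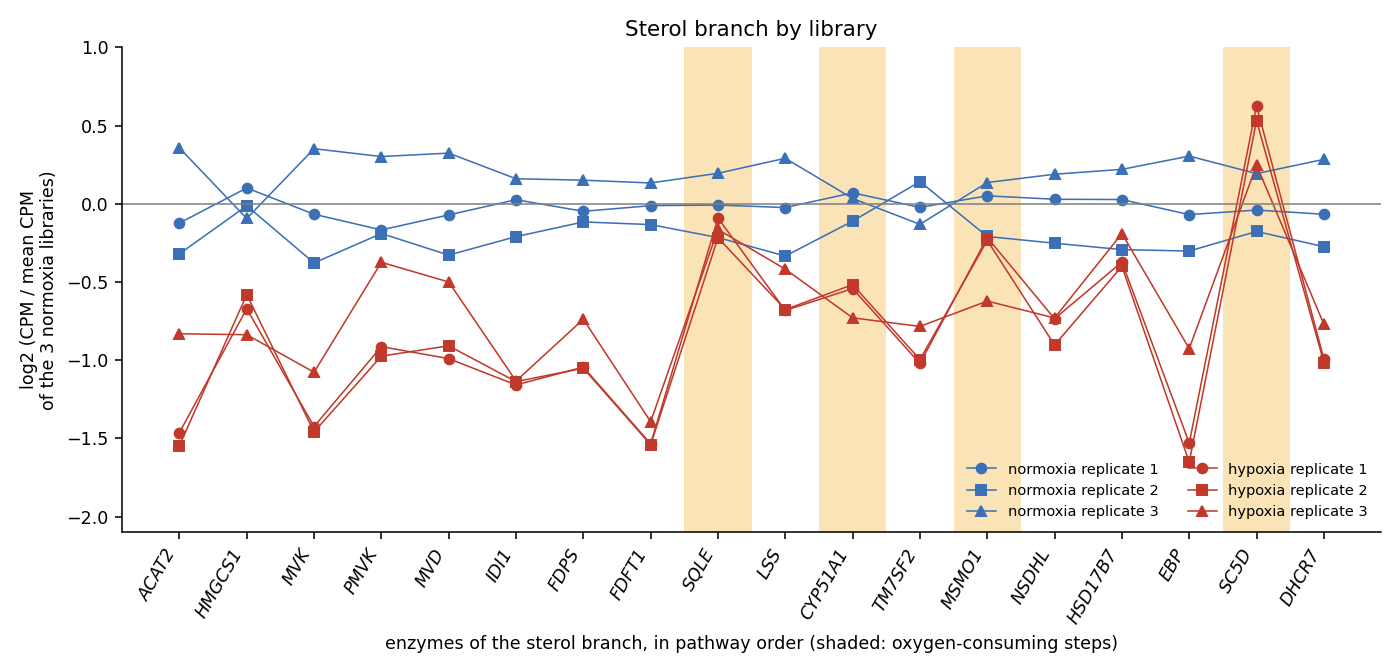
Log2 of CPM over the mean CPM of the normoxia libraries (y axis) for the 18 sterol enzymes in pathway order (x axis), one line per library, normoxia in blue and hypoxia in red, with oxygen-consuming steps shaded. The hypoxia lines run below 0 from ACAT2 to FDFT1, return to the normoxia range at SQLE and rise above it at SC5D. At the other steps after SQLE they lie below 0, the oxygen-consuming CYP51A1 included, and at HSD17B7 they overlap the normoxia range in part.

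In the fatty acid branch 9 of the 16 tested genes fell, 2 rose and 5 did not pass the test, with a median log2 fold change of -0.58. The shares of all genes tested were 29.1% lower and 30.4% higher, or 43.4% and 17.4% at 10 to 500 TPM in normoxia. The genes that carry carbon from citrate or acetate to palmitate fell, ACACB apart. ACLY, ATP citrate lyase, was at 639, 573 and 676 CPM in normoxia and 347, 348 and 406 CPM in hypoxia. It fell with a log2 fold change of -0.78 ± 0.098 (adjusted p = 4.52e-04). ACSS2, which makes acetyl-CoA from acetate, fell with a log2 fold change of -0.58 ± 0.11 (adjusted p = 0.0027), though not without replicate 1 (adjusted p = 0.0594). ACACA, acetyl-CoA carboxylase 1, makes the malonyl-CoA used for synthesis and was at 253, 214 and 251 CPM in normoxia and 81.3, 85.3 and 89.9 CPM in hypoxia. It fell 2.8-fold (log2 fold change -1.48 ± 0.091, adjusted p = 3.99e-05), with a narrow spread in hypoxia. ACACB, the mitochondrial carboxylase, whose malonyl-CoA restrains fatty acid oxidation, was at 5.93, 6.26 and 4.56 CPM in normoxia and 6.05, 6.94 and 7.21 CPM in hypoxia. The groups overlapped (log2 fold change 0.27 ± 0.16, adjusted p = 0.188). The TPM ratio of ACACB to ACACA was 0.0223 to 0.0361 in normoxia and 0.0916 to 0.1 in hypoxia.

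FASN, fatty acid synthase, had the largest fall of all tested members. The gene lies at chr17:80036214-80056106 on hg19, and its level was 1547, 1366 and 2163 CPM in normoxia and 502, 421 and 684 CPM in hypoxia. It fell 3.16-fold (log2 fold change -1.66 ± 0.22, adjusted p = 5.78e-04), and the same-numbered pairs gave log2 ratios of -1.62, -1.70 and -1.66. FASN was the highest member per gene length in normoxia, at 486 ± 101 TPM (SD, n = 3), and the third in hypoxia, at 167 ± 36.1 TPM. Among all genes in the files its mean TPM went from rank 261 to rank 890. THRSP, or Spot 14, a small protein of lipogenic tissues, had 318, 352 and 41 counts in normoxia and 155, 119 and 60 counts in hypoxia. It was low in replicate 3 of both conditions, so the groups overlapped and the fall was not called (log2 fold change -1.34 ± 0.77, adjusted p = 0.166). With the replicate block it was called (-1.24, adjusted p = 2.53e-04), as it was without normoxia replicate 3 (-1.83, adjusted p = 0.029) and without both replicate 3 libraries (-1.30, adjusted p = 2.88e-06).

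The elongases add carbons to palmitate and longer chains. ELOVL6, which acts on C16 chains, was at 32, 31.2 and 20.4 CPM in normoxia and 16.4, 16.5 and 16.3 CPM in hypoxia. It fell with a log2 fold change of -0.77 ± 0.17 (adjusted p = 0.00508), although not without replicate 1 (-0.65, adjusted p = 0.0648). ELOVL5, which acts on polyunsaturated chains, fell with a log2 fold change of -0.59 ± 0.079 (adjusted p = 6.18e-04). ELOVL1, an elongase of very long chains, had a log2 fold change of -0.33 ± 0.13, just short of the threshold (adjusted p = 0.0542), and was called with the replicate block (adjusted p = 6.12e-04), without normoxia replicate 2 (-0.42, adjusted p = 0.0353) and without hypoxia replicate 3 (-0.45, adjusted p = 0.00981). Of the acyl-CoA synthetases, which activate fatty acids, ACSL1 fell with a log2 fold change of -0.47 ± 0.11 (adjusted p = 0.00626; 0.061 without replicate 1). ACSL3 was at 103, 94.4 and 90.3 CPM in normoxia and 93.6, 93.4 and 88.9 CPM in hypoxia and was not called (log2 fold change -0.063 ± 0.079, adjusted p = 0.51), and its log2 fold change was 0.093 with upper-quartile scaling, so it has no direction that holds under each scaling.

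The desaturases, all of which consume oxygen, split in direction. SCD, the main stearoyl-CoA desaturase, was at 843, 627 and 648 CPM in normoxia and 469.5, 480.2 and 335 CPM in hypoxia. It fell with a log2 fold change of -0.72 ± 0.17 (adjusted p = 0.00688). SCD5, its paralog, was far lower, with 18, 17 and 10 counts in normoxia and 68, 61 and 161 counts in hypoxia. In CPM it rose 4.13-fold (log2 fold change 2.03 ± 0.24, adjusted p = 3.44e-04), the largest rise of all tested members. Even so, the TPM of SCD5 was 0.00442 to 0.0067 of that of SCD in hypoxia, against 0.000635 to 0.000927 in normoxia, so SCD stayed the dominant transcript in each library.

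The 3 FADS genes are neighbours on chromosome 11, and 1 fell, 1 rose and 1 was not called. FADS1, the delta5 desaturase (chr11:61567097-61584529 on hg19), was at 52.5, 53.5 and 43.2 CPM in normoxia and 47.4, 46.4 and 54.8 CPM in hypoxia. The groups overlapped, and the fitted change was -0.0052 ± 0.11 (adjusted p = 0.971), with 0.15 under upper-quartile scaling, although without replicate 3 it was -0.17 (adjusted p = 0.0342). FADS2, the delta6 desaturase (chr11:61583675-61634826), was at 15.6, 15.2 and 14.3 CPM in normoxia and 8.75, 7.9 and 9.14 CPM in hypoxia. It fell 1.75-fold (log2 fold change -0.80 ± 0.11, adjusted p = 6.32e-04). FADS3, a less studied desaturase of the family (chr11:61640995-61659017), was at 6.79, 7.34 and 5.01 CPM in normoxia and 17.1, 17.7 and 14.7 CPM in hypoxia. It rose 2.59-fold (log2 fold change 1.37 ± 0.16, adjusted p = 3.65e-04), with all hypoxia libraries above all normoxia libraries. The TPM ratio of FADS3 to FADS2, chosen after its values were seen, was 0.933, 1.04 and 0.753 in normoxia and 4.19, 4.82 and 3.46 in hypoxia. FADS1 and FADS2 share 142 exon bases on opposite strands, 3.21% and 3.69% of their exon bases.

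Set side by side, the sterol branch had the lower median. In the 3 same-numbered pairs the median log2 ratio of CPM was -0.85, -0.70 and -0.79 over the sterol branch and -0.66, -0.46 and -0.46 over the fatty acid branch. Summed per gene length, the sterol branch went from 1933 ± 152 to 1134 ± 65 TPM and the fatty acid branch from 1776 ± 106 to 1101 ± 14.4 TPM (SD, n = 3). Genes of a branch are not replicates, and the difference between branches was not tested.

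Split by oxygen use, the medians lay further apart. Of the 9 oxygen-consuming members, 3 rose (SC5D, SCD5 and FADS3), 3 fell (CYP51A1, SCD and FADS2) and 3 were not called (SQLE, MSMO1 and FADS1), with a median log2 fold change of -0.16. These shares lie near those of all genes tested, 30.4% higher and 29.1% lower. Among genes at 10 to 500 TPM in normoxia, 17.4% were higher and 43.4% lower. SCD5, FADS3 and FADS2 lay under that range, at 0.235, 8.73 and 9.53 TPM, and so did ACACB, without an oxygen step, at 1.48 TPM. The split by oxygen use was not matched for level. Of the 25 tested genes of both branches without an oxygen step, 20 fell, none rose and 5 were not called, with a median of -0.78. THRSP, which is not an enzyme, was among the 5 not called. The count of 0 that rose was also 0 at an unadjusted p under 0.05 and with DESeq2 or the edgeR exact test. With the replicate block the counts were 3 higher and 4 lower of 9, and 0 higher and 23 lower of 25, beside 36.6% higher and 35.2% lower over all genes. Within the sterol branch, 13 of the 14 enzymes without an oxygen step fell, and of the 4 oxygen-consuming ones 1 fell and 1 rose. Within the fatty acid branch, 7 of 11 without an oxygen step fell and none rose, and of the 5 desaturases 2 fell and 2 rose. In the same-numbered pairs the medians were -0.15, -0.025 and -0.36 for oxygen-consuming members and -0.92, -0.74 and -0.74 for the others. Upper-quartile scaling, which moved the median of all genes by 0.16, gave medians of 0.0051 and -0.62, so the oxygen-consuming median has no direction that holds under each scaling, while the gap between both medians was similar. This difference was not tested either.

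Summed per gene length, both kinds of step were lower in hypoxia. The summed TPM of oxygen-consuming members was 667, 549 and 557 in normoxia and 527, 525 and 403 in hypoxia. For the genes of both branches without an oxygen step it was 3080, 2898 and 3376 in normoxia and 1685, 1649 and 1916 in hypoxia. Oxygen-consuming members thus held 17.8%, 15.9% and 14.2% of the summed TPM of both branches in the normoxia libraries and 23.8%, 24.1% and 17.4% in the hypoxia libraries, and the groups overlapped because hypoxia replicate 3 lay just under normoxia replicate 1. SCD was the largest single part of that share, from 49.9% to 57.1% of the oxygen-consuming TPM in normoxia and from 38.8% to 45.4% in hypoxia.

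**Figure D4:**
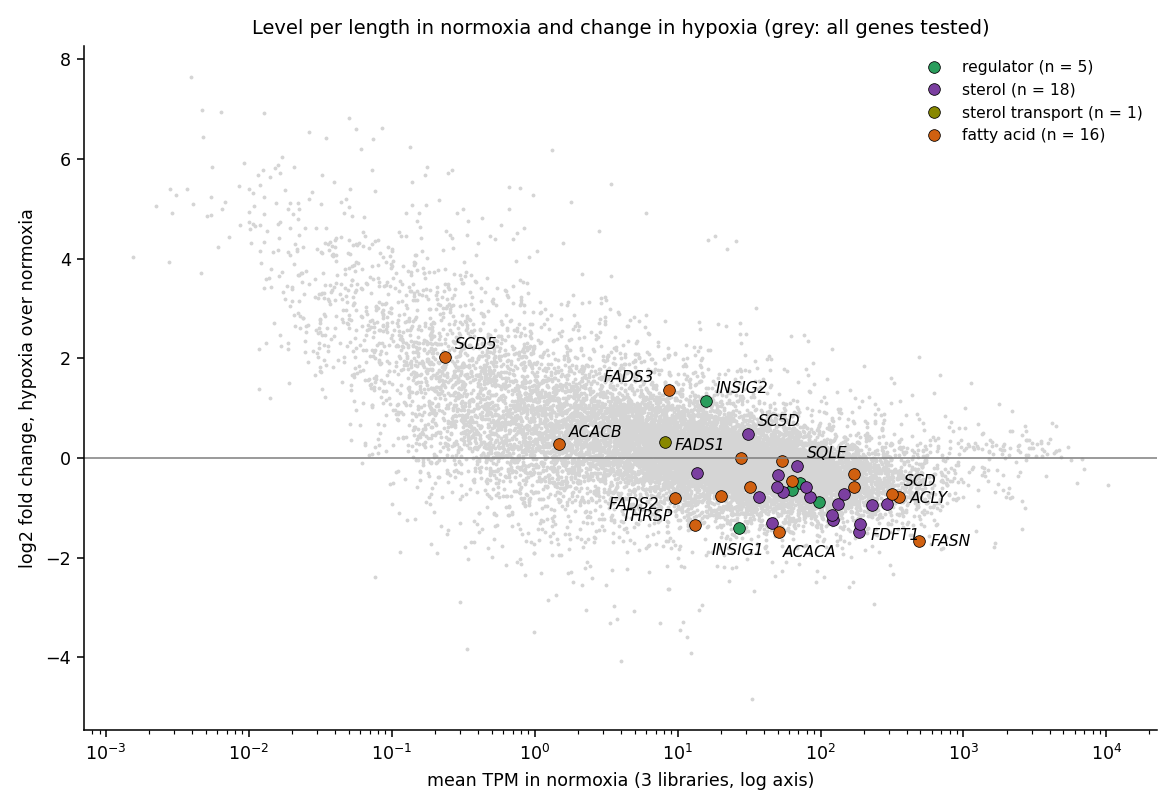
Mean TPM in normoxia (x axis, log scale) against the log2 fold change in hypoxia (y axis) for the 40 tested members, coloured by branch, over all genes tested with a count in normoxia (grey). Members at high TPM such as FASN, ACLY and FDFT1 lie below 0, and the members that rose most, SCD5, FADS3 and INSIG2, start from lower levels, where the grey points also lie higher.

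By level per gene length, ACLY (351 ± 18.7 TPM) and SCD followed FASN in normoxia, and these 3 remained the highest in hypoxia, led by ACLY (223 ± 12.3 TPM). In hypoxia FASN and TM7SF2, at 167 ± 36.1 and 167 ± 9.61 TPM, did not differ beyond their spread. INSIG2 and FADS3 each climbed 9 places among the 41 members, SC5D 8 and SQLE 6, and ACACA dropped 9. ME1, SCD5 and ACACB stayed the lowest in both conditions.

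Other genes of lipid synthesis, in 9 lists of 94 genes, changed less uniformly: of 92 tested, 19 rose, 36 fell and 37 were not called, with a median log2 fold change of -0.14, beside 30.4% higher and 29.1% lower over all genes tested. With the replicate block 23 were higher and 44 lower, beside 36.6% and 35.2%. Citrate and NADPH supply, which feeds both branches, fell in 7 of 9 genes and rose in none. PGD, an NADPH-producing enzyme of the pentose phosphate route, fell with a log2 fold change of -1.10 ± 0.074 (adjusted p = 4.81e-05), from 248, 244 and 238 CPM to 115, 106 and 119 CPM. The electron donors to the oxygen-consuming steps fell in 4 of 7 and rose in none. Among them CYB5B, a cytochrome b5, stood at -0.81 on the log2 scale (adjusted p = 4.56e-04), and POR, the cytochrome P450 reductase, at -0.71 (adjusted p = 8.14e-04). Mitochondrial fatty acid synthesis fell in 4 of 7 and rose in none, with NDUFAB1, its acyl carrier protein, at -0.96 (adjusted p = 9.43e-04) and HSD17B8, a subunit of its ketoacyl reductase, at -0.89 (adjusted p = 8.23e-04). In these 3 lists 0 genes were higher at an unadjusted p under 0.05 in edgeR or past the threshold in DESeq2 and the exact test.

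Lists around the regulators and side branches were mixed, as were all genes tested. Of all genes 30.4% were higher and 29.1% lower, or 36.6% and 35.2% with the replicate block. Of 11 genes of SREBP processing and turnover, 1 rose and 2 fell (2 higher and 3 lower with the replicate block). C12orf49, a Golgi protein needed for SREBP activity, rose (log2 fold change 0.51, adjusted p = 0.00157). Of 13 genes of sterol efflux, storage and LXR response, 4 rose and 5 fell, not far from the shares of all genes. MYLIP, a ubiquitin ligase for lipoprotein receptors and an LXR target, was at 10.5 to 11.6 CPM in normoxia and 21.4 to 23.4 CPM in hypoxia and rose with a log2 fold change of 1.03 ± 0.099 (adjusted p = 1.63e-04). PLTP, a phospholipid transfer protein, rose with a log2 fold change of 1.41 (adjusted p = 0.00213). TMEM97, a sterol-responsive membrane protein, was at 116 to 136 CPM in normoxia and 58.2 to 70.8 CPM in hypoxia and fell with a log2 fold change of -0.98 ± 0.10 (adjusted p = 2.06e-04). OSBP, an oxysterol-binding protein, stood at -0.42 on the log2 scale (adjusted p = 0.00245).

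Of 11 genes of the non-sterol isoprenoid branch, 1 rose and 5 fell, beside 30.4% higher and 29.1% lower over all genes tested. FNTA, a subunit of farnesyltransferase, rose with a log2 fold change of 0.62 (adjusted p = 0.0012), while PDSS1, which makes the side chain of coenzyme Q, stood at -1.03 (adjusted p = 6.77e-04) and DHDDS, for dolichol, at -0.89 (adjusted p = 3.13e-04). Of 10 genes of the elongation cycle and other elongases, 3 rose and 3 fell, near those shares. ELOVL4 stood at 1.47 on the log2 scale (adjusted p = 0.00632) and HSD17B12, the ketoacyl-CoA reductase of the cycle, at 0.30 (adjusted p = 0.00535), whereas TECR, its enoyl reductase, stood at -1.11 (adjusted p = 0.00226) and HACD3, a dehydratase, at -0.57 (adjusted p = 5.00e-04).

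Of the 9 tested genes for other acyl-CoA and acetyl-CoA synthetases, 3 rose and 2 fell, beside 30.4% higher and 29.1% lower over all genes tested. The fatty acid transport proteins went both ways on the log2 scale, with SLC27A2 at 1.10 (adjusted p = 0.00465), SLC27A3 at 0.54 (adjusted p = 0.00118) and SLC27A4 at -1.50 (adjusted p = 7.84e-04). ACSS1, the mitochondrial acetyl-CoA synthetase, stood at -0.71 on the log2 scale (adjusted p = 7.03e-04). Of the 15 tested lipogenic transcription factors and AMPK subunits, 7 rose and 4 fell, beside the same shares of all genes. MLXIPL, or ChREBP, which answers to glucose, rose with a log2 fold change of 0.54 (adjusted p = 8.27e-04), but MLX, the partner it needs to bind DNA, fell with a log2 fold change of -1.07 ± 0.07 (adjusted p = 4.41e-05), from 130.0, 121 and 128 CPM to 59.4, 61.3 and 60.2 CPM. PRKAA2, a catalytic AMPK subunit, rose (log2 fold change 0.64, adjusted p = 0.00328), and USF2, an E-box factor, stood at -0.37 on the log2 scale (adjusted p = 0.00329).

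**Figure D5:**
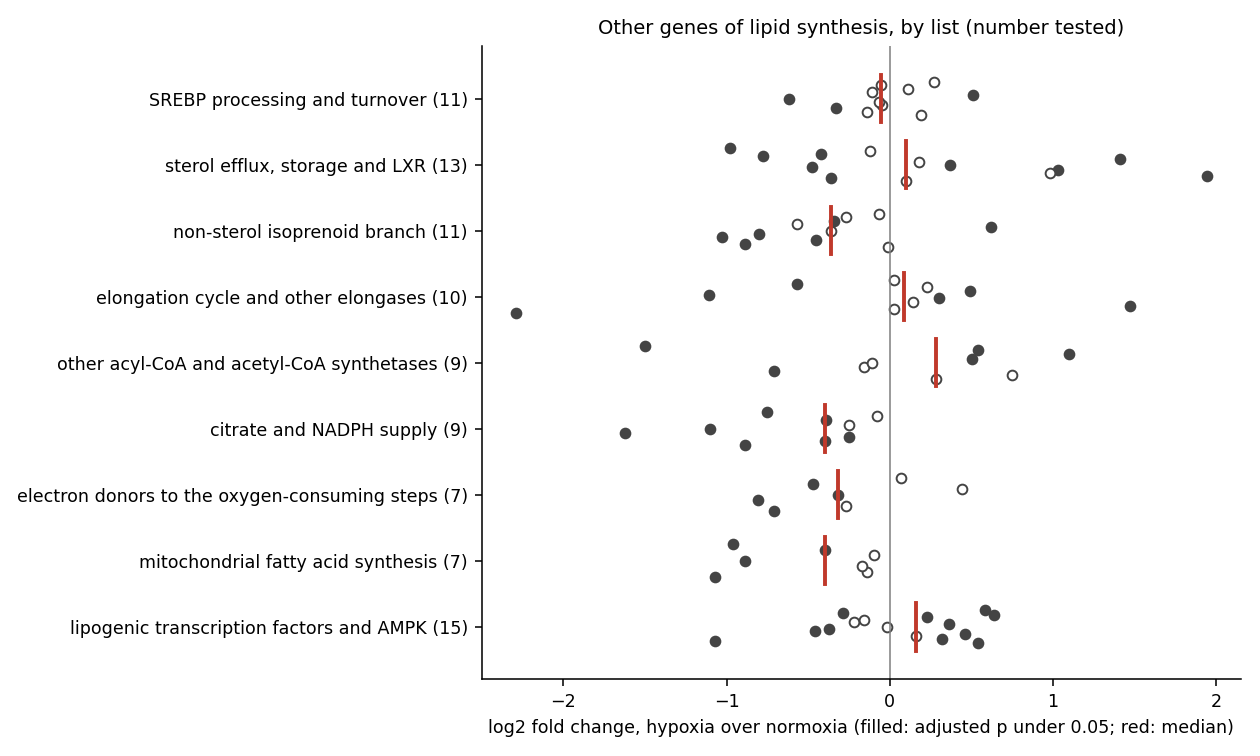
Log2 fold change (x axis) of each tested gene in 9 further lists of lipid synthesis genes, with filled points for an adjusted p under 0.05 and red bars for the median. Citrate and NADPH supply, electron donors and mitochondrial fatty acid synthesis have filled points on the left side only.

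The labels were checked against markers. VEGFA, a hypoxia-induced growth factor, was at 34.2 to 46.5 CPM in normoxia and 764 to 834 CPM in hypoxia, and CA9, a carbonic anhydrase induced by low oxygen, at 0.194 to 0.937 CPM in normoxia and 21.1 to 31.5 CPM in hypoxia. All 9 luminal markers of T47D were expressed, and 4 of them fell (6 lower and 1 higher with the replicate block), with log2 fold changes of -1.86 for ESR1, -2.93 for PGR, -0.74 for GATA3 and -0.55 for FOXA1. Over all genes tested, 29.1% were lower and 30.4% higher, or 35.2% and 36.6% with the replicate block. Of the 6 basal and mesenchymal markers 2 were tested and neither was called, but VIM was at 12.8 and 11 CPM in the replicate 3 libraries of normoxia and hypoxia and at 0.177 to 0.957 CPM in the other 4, and without replicate 3 it was called higher (log2 fold change 1.87, adjusted p = 4.76e-04). Fibroblast markers summed to 84.2 to 95.9 CPM in normoxia and 77.4 to 99.6 CPM in hypoxia, nearly all of it COL1A1, with 1 of 2 tested genes, PDGFRB, higher. Endothelial markers summed to at most 0.656 CPM. Leukocyte markers summed to 2.04 to 2.5 CPM in normoxia and 8.52 to 10.5 CPM in hypoxia, with CD68 among them, while PTPRC and CD3E were at 0 to 0.109 CPM. Markers of adipocytes and hepatocytes summed to 1 to 1.39 and 2.58 to 2.71 CPM, with APOB at 0 counts in each library. Their part in the results above was not tested. In such bulk libraries, fewer cells with a transcript and less of it per cell cannot be told apart.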

How the data were processed

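The deposited files hold raw read counts per gene, 1 file per library. Per the labels, mRNA libraries were made with a strand-keeping kit, and per the submitters' processing notes reads were checked with FastQC 0.11.5, aligned with STAR 2.5.2a to hg19 and counted by the authors with featureCounts 1.5.1. No per-sample column was left unused (0).

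Counts were tested with edgeR 4.0.16 (R 4.3.3): TMM scaling, filterByExpr (min.count 10, min.total.count 15), quasi-likelihood test of condition, two-sided, and Benjamini-Hochberg adjustment at 0.05 over 15657 genes. CPM are TMM-scaled. TPM were computed from counts and the exon length in the files and are not TMM-scaled, so fold changes are from CPM. At these depths 3 counts equal 0.0334 to 0.0909 CPM. The fit was tested on simulated data, where the share of false calls was above the nominal level.

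The replicate numbers are in the labels. The deviations of same-numbered libraries from their condition means correlated at 0.453, 0.519 and 0.634 across genes. Deviations from a shared mean depend on each other, so replicate 3, which stood apart in both conditions, can raise all of these values. Correlations between libraries of different numbers are not given, so pairing of the other replicates was not tested. That the numbers pair the libraries is therefore an assumption. The fit with a replicate block, which rests on it, is given beside members whose call that fit changed and beside counts that it moved most. Libraries of a condition differed beyond sampling noise (chi-square per degree of freedom 6.09 to 68.5), so none was counted as a duplicate.

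The members and lists were chosen with earlier results of these data known. Full statistics are given for the regulators, the oxygen-consuming members, members past 2-fold and the 3 largest changes each way in each branch, and of each further list for the 2 genes with the smallest p each way. Alternatives were the edgeR exact test, DESeq2 1.42.0, RLE and upper-quartile factors, no filter or a stricter one (50 counts in 3 libraries), thinning of hypoxia replicate 3 to the mean depth of the other libraries and leaving out libraries. Some genes of the pathway were not analysed here, and some genes of the further lists and markers enter the counts but are not reported by name.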

Additional observations from a re-analysis of the deposited data

How the results depend on the processing

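The 31 called members kept their direction and call under the exact test, DESeq2, both other scalings, both other filters, the replicate block and thinning. The replicate block added 5 calls, with -0.35 for MSMO1, -0.31 for HSD17B7, 0.30 for STARD4, -1.24 for THRSP and -0.33 for ELOVL1, and it changed no other call of a member. With libraries left out, 20 to 30 members were lower and 3 to 5 higher. Leaving out both replicate 1 libraries lost 8 of the 31 calls (SREBF2, PMVK, MVD, LSS, SC5D, ACSS2, ELOVL6 and ACSL1), which leaves 2 libraries per condition. Over all genes the left-out fits gave 2648 to 5751 higher and 2191 to 5506 lower, with both lowest counts without replicate 1, and over the other lipid synthesis lists 7 to 24 higher and 21 to 44 lower.

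Upper-quartile scaling gave 5972 genes higher and 3285 lower, against 4765 and 4551 with TMM. It moved the median of all members to -0.55, of the sterol branch to -0.62, of the fatty acid branch to -0.43 and of the genes of both branches without an oxygen step to -0.62, and turned that of the oxygen-consuming steps to 0.0051. It also turned SQLE to 0.0051, FADS1 to 0.15 and ACSL3 to 0.093, none of them called. FADS1 was 0.036 under the stricter filter and between -0.17 and 0.091 in the left-out fits. The left-out medians ran from -0.74 to -0.62 over all members, -0.95 to -0.72 over the sterol branch, -0.63 to -0.54 over the fatty acid branch, -0.27 to -0.10 over the oxygen-consuming steps and -0.87 to -0.73 over the genes of both branches without an oxygen step. As CPM without gene length, INSIG2 over INSIG1 in hypoxia was 3.06, SREBF1 over SREBF2 in normoxia 1.18, SCD5 over SCD in normoxia 0.000589 and ACACB over ACACA in hypoxia 0.0787. Low counts limit SCD5 and ME1, and THRSP in replicate 3 of both conditions, and 38 of 41 members had 100 or more counts in each library. The cause of these shifts was not tested.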

Other observations

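Several members start close to a neighbour that is read in the other direction (hg19, starts within 1000 bases), and the neighbour did not always share the member's change. The starts of MVK and MMAB, an enzyme of cobalamin metabolism, lie 142 bases apart. MMAB fell with a log2 fold change of -0.37 ± 0.08 (adjusted p = 0.00489, edgeR), beside -1.30 for MVK. CETN2, a centrosome protein that starts 210 bases from NSDHL, fell with a log2 fold change of -0.44 ± 0.076 (adjusted p = 0.00183), beside -0.79. IDI1 fell with a log2 fold change of -1.14, and WDR37, which starts 120 bases away, was at -0.015 ± 0.079 (adjusted p = 0.881). ACACA fell with a log2 fold change of -1.48, and TADA2A, a transcription adaptor 75 bases away, was at -0.10 ± 0.12 (adjusted p = 0.466). Beside MVD, at -0.78, the antisense transcript SNAI3-AS1 rose with a log2 fold change of 0.99 ± 0.25 (adjusted p = 0.0093) from a level near 1 CPM. The differences between a member and its neighbour were not tested.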
